A study of Homo sapiens with 10 samples.

Results

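The complement receptors and membrane regulators are 9 genes of the 19590 in the deposited expression table: CR1, CR1L, CR2, CD46, CD55, CD59, C3AR1, C5AR1 and C5AR2. They were taken by symbol. The group was chosen on the values of the knockout comparison itself, because CR1 was seen to be switched on in the knockout libraries, so its difference between the groups is described below and not tested. MV4-11 is an established human acute myeloid leukemia (AML) line of the monocytic type with an internal tandem duplication in FLT3, and the study asked which genes change there when the transcription factor IRF8 is deleted. RNA of cells infected with the control vector (control, 4 libraries) and of IRF8 knockout cells (IRF8 KO, 4 libraries) was sequenced, with no further treatment named in the labels. By the methods of the study, the knockout cells were clones grown by limiting dilution after lentiviral delivery of Cas9 with a guide RNA against IRF8 and puromycin selection. The clones of the study were not all made with the same guide. Control cells had been infected with the control vector. The labels do not say which clone each IRF8 KO library came from, nor whether the replicates were separate cultures, so that errors and p-values measure only the spread between these libraries.

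Complement is a cascade of plasma proteins that tags particles with C3 and C4 fragments, releases the small peptides C3a and C5a, and can end in a pore in the target membrane. Cells read these products through receptors: CR1 and CR2 bind the deposited fragments, while C3AR1 and C5AR1 are G protein-coupled receptors for the anaphylatoxins, and C5AR2 is a related C5a receptor that does not couple to G proteins in the usual way. Cells protect themselves through membrane regulators, with CD55 and CR1 taking convertases apart, CD46 and CR1 serving as cofactors for the cleavage of C3b and C4b, and CD59 blocking the assembly of the pore. CR1, CR1L, CR2, CD46 and CD55 are built from repeats of the complement control protein module, lie next to each other on chromosome 1 and belong to 1 gene cluster.

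The promoter sequences of CR1, its paralog CR1L, the neighbour CD46 and CD59 are shown because they carry the contrast described below between neighbouring genes with very different values, and because CD59 alone held the searched IRF-type motif. Each is the 250 bases before the RefSeq start of the gene in GRCh38.p14, 5′ to 3′ on the strand of the gene. Capitals mark the ETS core GGAA or, where it lies on the opposite strand, TTCC, and in CD59 also the composite motif described in the next paragraph. They lie at chr1:207495907-207496156 (plus strand, CR1), chr1:207644883-207645132 (plus strand, CR1L), chr1:207751788-207752037 (plus strand, CD46) and chr11:33736480-33736729 (minus strand, CD59).
CR1: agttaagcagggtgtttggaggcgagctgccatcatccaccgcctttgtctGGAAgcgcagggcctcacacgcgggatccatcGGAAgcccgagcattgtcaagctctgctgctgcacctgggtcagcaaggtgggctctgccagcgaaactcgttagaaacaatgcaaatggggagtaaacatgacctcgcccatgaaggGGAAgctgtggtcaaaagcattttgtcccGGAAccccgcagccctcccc
CR1L: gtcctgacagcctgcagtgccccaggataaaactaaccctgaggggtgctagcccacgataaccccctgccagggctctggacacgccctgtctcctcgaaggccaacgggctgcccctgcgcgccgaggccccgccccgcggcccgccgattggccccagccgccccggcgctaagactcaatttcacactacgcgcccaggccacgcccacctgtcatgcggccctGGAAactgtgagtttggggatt
CD46: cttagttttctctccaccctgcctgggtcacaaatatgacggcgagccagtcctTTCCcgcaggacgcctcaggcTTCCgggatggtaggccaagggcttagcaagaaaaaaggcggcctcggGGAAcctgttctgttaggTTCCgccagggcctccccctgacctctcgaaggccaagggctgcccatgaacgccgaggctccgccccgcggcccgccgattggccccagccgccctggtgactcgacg
CD59: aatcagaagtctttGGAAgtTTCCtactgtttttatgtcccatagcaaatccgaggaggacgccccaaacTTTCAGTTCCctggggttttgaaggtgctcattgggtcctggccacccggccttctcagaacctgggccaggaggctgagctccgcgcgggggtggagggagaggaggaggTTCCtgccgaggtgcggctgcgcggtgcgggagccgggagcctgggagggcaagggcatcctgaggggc

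IRF8 binds DNA largely together with partner factors of the ETS family such as PU.1, at a composite of an ETS core and an IRF core. A search on both strands of the RefSeq promoter windows, each of 300 bases including 50 after the start, found the composite letters GGAANNGAAA in 2.82% of 35116 windows of 27305 genes. Among the 14 windows of the 9 genes it was in 2, both of CD59. These windows overlap and share a single match on the opposite strand. It lies inside both windows and begins 180 bases before the RefSeq start of the gene that the first window was built on. The interferon response core GAAANNGAAA was in 3.57% of all windows and in 0 of the 14. The bare ETS core GGAA, which the composite contains, was in 95.5% of all windows and in all 14, with 1 to 6 matches each. In these windows CR1 had 4 matches to GGAA and CR1L had 2, and neither held either longer motif. A match is a run of letters and no evidence of binding.

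In local alignments of the printed stretches, the CR1L and CD46 promoters shared 86 of 95 aligned bases (90.5%, with 7 gap bases). The CR1 and CR1L promoters shared 45 of 64 aligned bases (70.3%). In these local alignments, which differ in length, the promoter of CR1L was closer in its letters to that of CD46 than to that of CR1. A link of these letters to the values in the libraries was not tested.

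Each of the 8 libraries had 39560072 to 65519047 reads assigned to genes. Values are normalized counts, which are reads per gene divided by a size factor of the library, so that 1 read was worth close to 1. Differences were fitted by limma for 13110 genes, those with an average of 10 or more over all libraries, on the scale log2(normalized count + 1), which understates the change of low genes. IRF8 itself was at 36891, 15192, 43016 and 22535 normalized counts in controls 1 to 4, and at 6377, 2401, 12903 and 7820 in IRF8 KO 1 to 4. It was lower by 2.11 ± 0.51 (SE) on the log2 scale (limma adjusted p = 0.022), with no overlap between the groups but with transcript left in every IRF8 KO library, and this call was lost when control 1, control 3 or IRF8 KO 1 was left out (adjusted p from 0.053 to 0.059). The median difference of all tested genes was −0.00094.

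CR1, the receptor for C3b and C4b on blood cells, was close to absent in control cells. The controls held 0.80, 0, 2.15 and 1.88 normalized counts, which came from 5 reads in all (95% exact Poisson interval 1.62 to 11.7). IRF8 KO 1 to 4 held 4567, 1200, 371 and 889, from 6719 reads in all. Every IRF8 KO library was therefore far above every control, while the knockout libraries themselves differed by 12.3-fold between the highest (IRF8 KO 1) and the lowest (IRF8 KO 3).

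The mean of CR1 was 1.21 ± 0.99 (SD, n = 4) in control and 1757 ± 1905 (SD, n = 4) in IRF8 KO cells. The ratio of these means was 1453, and the counting error of the control reads alone puts it between 623 and 4476. The fitted log2 fold change was 9.17 ± 0.72 (SE). It depends on the pseudocount, as the controls were at or near 0 reads.

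CR1L, a paralog of CR1 in the same cluster, had 0 reads in all 4 controls. In IRF8 KO 1 to 4 it was at 201, 56.4, 16.3 and 44.3 normalized counts, from 305 reads in all, with a mean of 79.6 ± 82.9 (SD, n = 4). Against a floor of 3 reads per control library this was at least 28.8-fold higher. The order of the 4 knockout libraries was that of CR1, with IRF8 KO 1 highest and IRF8 KO 3 lowest, and the range was nearly the same at 12.4-fold.

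Because CR1 and CR1L are near-identical in part, the reads of both genes were added and the share given to CR1L was computed for each library. It was 4.22% of 4475 reads in IRF8 KO 1 (Wilson 95% interval 3.67 to 4.85), 4.49% of 1314 in IRF8 KO 2 (3.50 to 5.75), 4.20% of 286 in IRF8 KO 3 (2.42 to 7.19) and 4.74% of 949 in IRF8 KO 4 (3.56 to 6.29). The mean share was 4.41% ± 0.256 (SD, n = 4). The share of each library lay within the counting intervals of all the others, while the level of both genes moved by more than 12-fold. These intervals are wide, above all in IRF8 KO 3, and whether the share was constant was not tested. Whether reads were shared between the near-identical parts of the genes was not tested, and the values of CR1L are uncertain for that reason. The intervals cover counting error only.

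CR2, the receptor for C3d on B cells and follicular dendritic cells and the direct neighbour of CR1, was at 0 in all 4 controls and in IRF8 KO 2, 3 and 4. IRF8 KO 1 held 1.07 normalized counts, which is 1 read. CR2 was below the minimum mean and did not enter the fit. Of the 3 receptors of this cluster, 2 were therefore found almost only in IRF8 KO libraries, and the one between them and CD55 was not detectable in either group beyond that read.

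**Figure D1:**
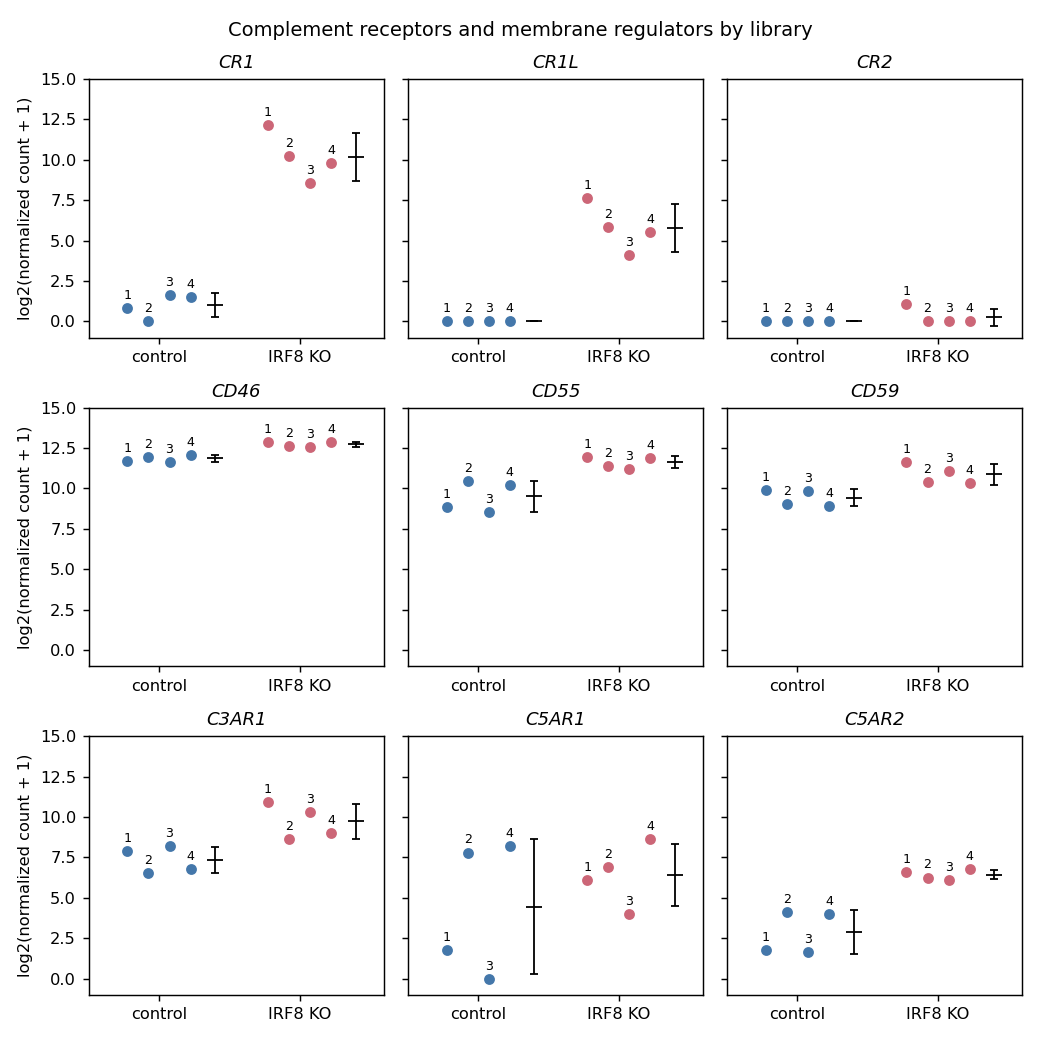
Each panel gives 1 gene on the log2(normalized count + 1) scale (y axis) for the 4 control and the 4 IRF8 KO libraries (x axis); the numbers beside the points are replicate numbers, and the bars are the mean and SD of the log2 values of each group. CR1 and CR1L lie near 0 in every control and far above it in every IRF8 KO library, CR2 stays near 0, CD46, CD55, CD59, C3AR1 and C5AR2 are present in both groups without overlap, and the groups of C5AR1 overlap.

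The membrane regulators, which most cells carry, were well expressed in the control cells and higher in every IRF8 KO library. CD46, the cofactor for cleavage of C3b and C4b, was at 3371, 4001, 3171 and 4343 normalized counts in controls 1 to 4 and at 7407, 6428, 6118 and 7616 in IRF8 KO 1 to 4. The groups did not overlap, with means of 3722 ± 545 and 6892 ± 731 (SD, n = 4 each). The ratio of the means was 1.85 and the log2 fold change 0.89 ± 0.14 (SE).

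CD55 (decay-accelerating factor), which dissociates the C3 and C5 convertases, was at 451, 1381, 377 and 1172 normalized counts in controls 1 to 4. It was at 4000, 2711, 2354 and 3776 in IRF8 KO 1 to 4. Controls 2 and 4 were well above controls 1 and 3, a 3.66-fold range, yet the highest control was below the lowest IRF8 KO library. The means were 845 ± 506 and 3210 ± 802 (SD, n = 4 each), a ratio of 3.80 and a log2 fold change of 2.11 ± 0.43 (SE).

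CD59, which blocks the pore of the terminal pathway and sits on chromosome 11, away from the cluster, was at 953, 515, 907 and 483 normalized counts in controls 1 to 4. In IRF8 KO 1 to 4 it was at 3220, 1343, 2165 and 1289. Here replicates 1 and 3 were the higher ones in both groups, the opposite of CD55 in the controls, and the groups again did not overlap. The means were 715 ± 250 and 2004 ± 904 (SD, n = 4 each), a ratio of 2.80 and a log2 fold change of 1.45 ± 0.35 (SE). This log2 fold change lies between those of CD46 and CD55, and a link to the composite motif in the CD59 promoter was not tested.

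The 3 anaphylatoxin receptors did not behave alike. C3AR1, the receptor for C3a, was at 241, 90.6, 289 and 107 normalized counts in controls 1 to 4 and at 1980, 402, 1281 and 524 in IRF8 KO 1 to 4. Replicates 1 and 3 were higher than 2 and 4 in both groups, and the lowest IRF8 KO library was above the highest control. The means were 182 ± 98.1 and 1047 ± 733 (SD, n = 4 each), with a ratio of 5.75 and a log2 fold change of 2.40 ± 0.58 (SE).

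C5AR1, the main receptor for C5a on myeloid cells, was at 2.41, 223, 0 and 291 normalized counts in controls 1 to 4. In IRF8 KO 1 to 4 it was at 68.2, 121, 14.9 and 399. The groups overlapped, because controls 2 and 4 were above most IRF8 KO libraries while controls 1 and 3 were near 0. The means were 129 ± 150 and 151 ± 171 (SD, n = 4 each), and the log2 fold change of 1.98 had a standard error of 1.91. C5AR1 was the only one of the 8 fitted genes whose groups overlapped.

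C5AR2, which lies beside C5AR1 on chromosome 19, was at 2.41, 16.4, 2.15 and 15.1 normalized counts in controls 1 to 4. It was at 94.8, 75.5, 69.1 and 107 in IRF8 KO 1 to 4. The controls split as for C5AR1, with 2 and 4 above 1 and 3, but the knockout libraries were even, with only 1.55-fold between their highest and lowest. The means were 9.0 ± 7.78 and 86.7 ± 17.5 (SD, n = 4 each), a ratio of 9.63 and a log2 fold change of 3.54 ± 0.62 (SE).

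Counted together, 8 of the 9 genes had enough reads for the fit. As a background for the lists below, 8.65% of all 13110 tested genes were called higher in IRF8 KO cells at a limma adjusted p below 0.05 and 9.56% lower. The groups did not overlap in 7 genes, all higher in IRF8 KO cells, against 12.3% of all tested genes. The median log2 fold change of the 8 fitted genes was 2.25. As the genes were chosen on this comparison and CR1, CR1L and C5AR2 passed the minimum mean only through the knockout libraries, nothing is read from these counts. The chromosomes of the genes had median log2 fold changes of −0.012 (chromosome 1, 1295 genes), −0.0018 (chromosome 11, 717 genes), 0.015 (chromosome 12, 678 genes) and −0.079 (chromosome 19, 1007 genes).

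Libraries with the same replicate number deviated together from their group means, so the difference was also taken within each number. Replicates 1 and 3, and replicates 2 and 4, deviated together as well, so the numbers may not be true pairs. For CR1 the log2 difference was 11.31, 10.23, 6.89 and 8.27 in replicates 1 to 4, and for CR1L it was 7.66, 5.84, 4.11 and 5.50. The spread of these 2 genes came from the knockout libraries, since the controls were at or near 0 reads.

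CD46 differed by 1.14, 0.68, 0.95 and 0.81 in replicates 1 to 4, and CD59 by 1.76, 1.38, 1.25 and 1.41. For C3AR1 the differences were 3.03, 2.14, 2.14 and 2.28. In CD59 and C3AR1 the split between replicates 1 and 3 and replicates 2 and 4 was shared by both groups. In CD46 it was not, since controls 1 and 3 were the low ones while IRF8 KO 1 was above IRF8 KO 2.

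CD55 differed by 3.15, 0.97, 2.64 and 1.69, and C5AR2 by 4.81, 2.14, 4.48 and 2.75. C5AR1 differed by 4.34, −0.87, 3.99 and 0.46. In these 3 genes, as in CD46, the difference was larger in replicates 1 and 3, where the control was low, and C5AR1 was lower in the knockout library of replicate 2. The labels name no batch that separates replicates 1 and 3 from 2 and 4, and its part in these values was not tested.

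**Figure D2:**
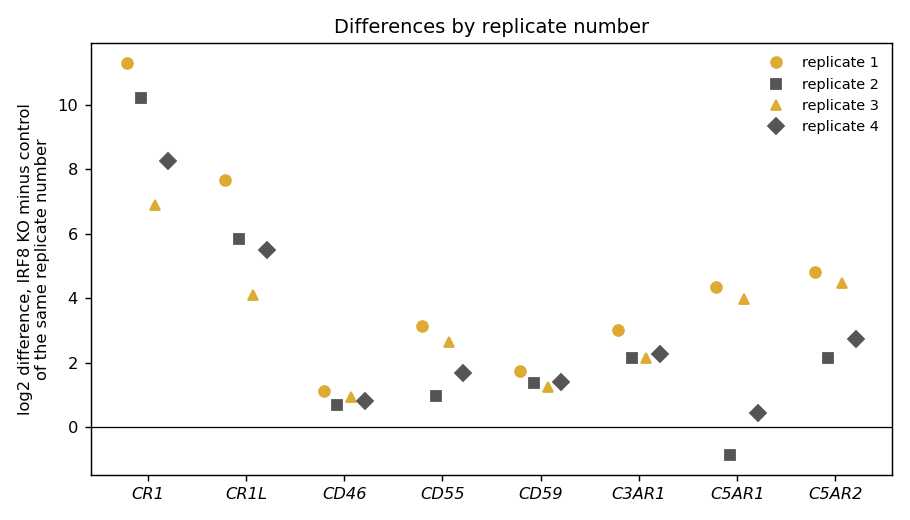
The log2 difference of IRF8 KO minus control on the log2(normalized count + 1) scale (y axis) is shown for the 8 fitted genes (x axis), with 1 symbol for each replicate number. The 4 points lie close together for CD46, CD59 and C3AR1, replicates 1 and 3 lie above 2 and 4 for CD46, CD55, C5AR1 and C5AR2, and 1 point of C5AR1 lies below 0.

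To see whether the genes next to CR1 moved with it, the 23 protein-coding RefSeq genes from IL20 to C1orf74 were taken in chromosome order. Of the 18 that are not among the 9 genes, 8 were tested, 0 were called higher, 3 were called lower and 5 were not called. Their median log2 fold change was −0.35. Among the tested genes of this stretch, those without overlap and higher in IRF8 KO cells were CD55, CR1, CR1L and CD46. Over all tested genes this share was 12.3%. All of those named belong to the genes chosen on this comparison, and CR1 and CR1L passed the minimum mean only through the knockout libraries. Nothing is therefore read from their place in this stretch, where 10 of the 18 other genes were too low to be tested. C4BPA and C4BPB, which encode the chains of the soluble C4b-binding protein and lie just before CD55, were at most at 1.35 normalized counts and at 0, respectively.

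The genes that fell lie farther out. TRAF3IP3, an adaptor protein of lymphoid cells, fell to 922 ± 113 normalized counts from 2159 ± 91.1 in control (SD, n = 4 each; log2 fold change −1.23 ± 0.12 SE, limma adjusted p = 3.4e-04). FCMR, the Fc receptor for IgM, fell from 248 ± 143 to 49.0 ± 30.1 (−2.51 ± 0.73 SE, limma adjusted p = 0.044). FCAMR, an Fc receptor for IgA and IgM, was at 55.6 ± 27.4 and 13.3 ± 5.99 (−1.88 ± 0.54 SE, limma adjusted p = 0.041), with overlapping groups. The calls of FCMR and FCAMR were lost without any of several libraries. For FCMR these were control 1, 2, 3 or 4 and IRF8 KO 3 or 4, with adjusted p up to 0.11. For FCAMR they were control 1, 3 or 4 and each of the 4 IRF8 KO libraries, with adjusted p up to 0.106.

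**Figure D3:**
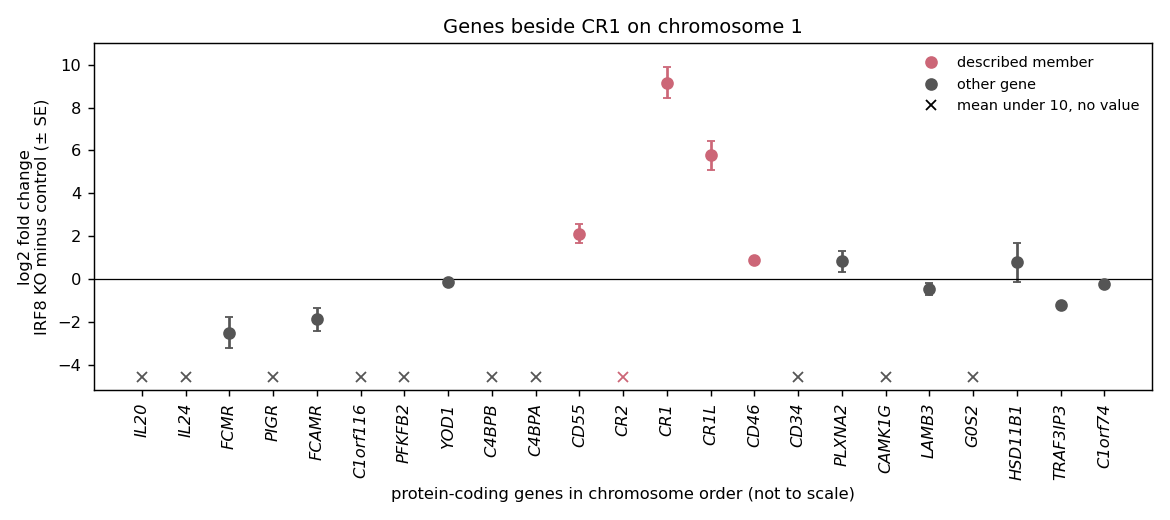
The log2 fold change of IRF8 KO minus control, with its standard error (y axis), is given for the 23 protein-coding genes beside CR1 in the order of chromosome 1 (x axis, not to scale); crosses mark genes with a mean under 10, which have no value. CR1 stands highest at 9.17, followed by CR1L, CD55 and CD46, while the other tested genes lie between −2.51 and 0.83.

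The other genes of the complement system were described from a list of 49, of which 23 were tested, 26 were too low and 7 of those were at 0 in every library. Of the tested genes, 7 were called higher, 1 lower and 15 were not called. Their median log2 fold change was 0.55. With the replicate number as a block, 9 were called higher and 2 lower.

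The components of the classical and lectin pathways, which start the cascade from antibody or sugar patterns, did not pass the test in any of 8 tested genes. C4A and C4B, which are near-identical copies, so that their values are uncertain, had log2 fold changes of 0.15 and 0.16. With the block C1S, a protease of the C1 complex, was called higher (limma adjusted p = 0.18 without and 0.033 with the block).

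Of the 3 tested genes of C3 and the alternative pathway, 1 was called. CFD, the protease factor D of the alternative pathway, rose from 5367 ± 410 to 19704 ± 3368 normalized counts (SD, n = 4 each; log2 fold change 1.86 ± 0.14 SE, limma adjusted p = 9.2e-05). C3 itself had a log2 fold change of −0.56 ± 0.50 (SE; limma adjusted p = 0.49). The 2 tested genes of the terminal pathway went in opposite directions. C8G, a subunit of the pore, rose from 10.9 ± 2.80 to 49.0 ± 17.4 (2.01 ± 0.38 SE, limma adjusted p = 0.0067). C5, the source of the ligand of C5AR1 and C5AR2, fell from 1402 ± 221 to 844 ± 194 (−0.75 ± 0.21 SE, limma adjusted p = 0.038), and this call was lost without control 1, 2 or 4 or without IRF8 KO 1 or 4 (adjusted p from 0.058 to 0.098).

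Among the soluble regulators, the fluid-phase counterparts of CD46, CD55 and CD59, CLU (clusterin), which keeps the pore complex soluble, rose from 251 ± 77.3 to 1613 ± 273 normalized counts (SD, n = 4 each; 2.73 ± 0.27 SE, limma adjusted p = 3.4e-04). SERPING1 (C1 inhibitor) was called lower with the block only (limma adjusted p = 0.19 without and 0.042 with it).

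Among the other complement receptors and membrane proteins, 2 of 6 tested genes were called, both higher. ITGAM, the alpha chain of complement receptor 3, rose from 79.6 ± 22.1 to 710 ± 366 normalized counts (SD, n = 4 each; 3.03 ± 0.38 SE, limma adjusted p = 9.8e-04). Its beta chain ITGB2 had a log2 fold change of 0.07 ± 0.18 (SE; limma adjusted p = 0.84), and ITGAX, the alpha chain of complement receptor 4, had 0.55 ± 0.71 (limma adjusted p = 0.66). VSIG4, a macrophage receptor for C3b and iC3b, rose from 10.2 ± 5.30 to 170 ± 80.3 (3.86 ± 0.51 SE, limma adjusted p = 0.0013). CALR (calreticulin) was called higher with the block (limma adjusted p = 0.094 without and 0.0016 with it).

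**Figure D4:**
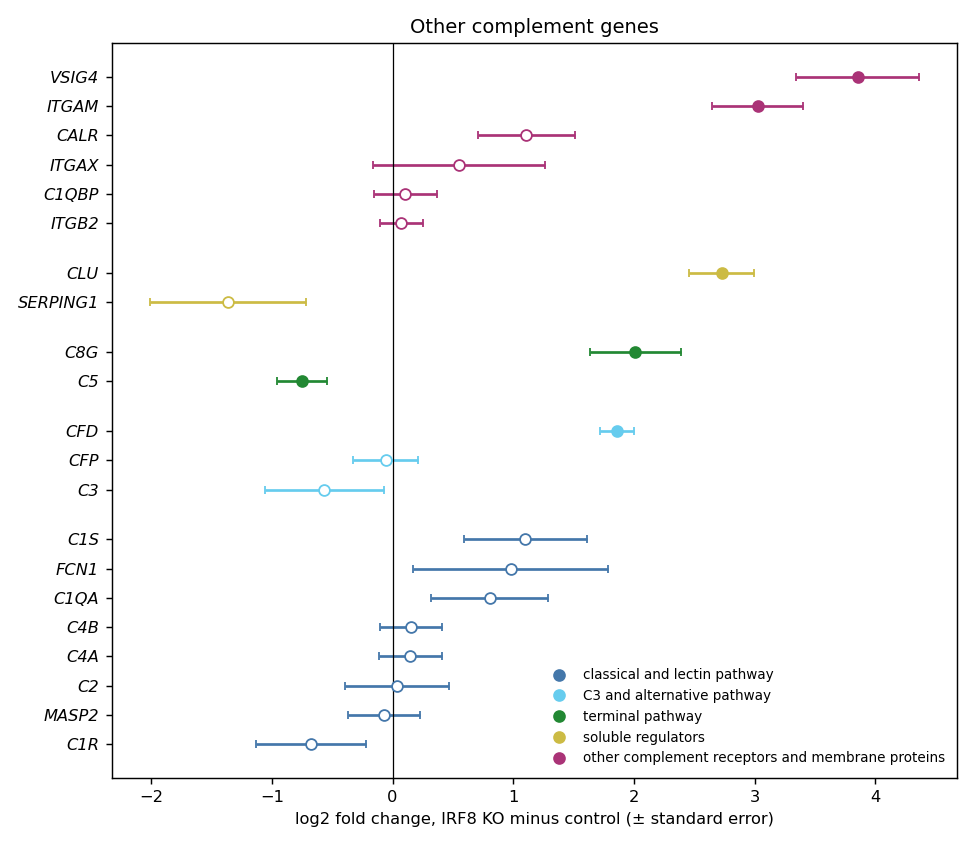
The log2 fold change of IRF8 KO minus control with its standard error (x axis) is shown for tested complement genes outside the 9 described ones (y axis), coloured by their role; filled points were called at a limma adjusted p below 0.05 and open points were not. The called genes shown are the soluble regulator CLU, the receptors VSIG4 and ITGAM, CFD and C8G on the higher side and C5 on the lower side.

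CD55 and CD59 are held in the membrane by a glycosylphosphatidylinositol (GPI) anchor, which is built in the endoplasmic reticulum and attached after translation. Of 30 genes of anchor synthesis and remodelling, 29 were tested, 5 were called higher, 2 lower and 22 were not called. Their median log2 fold change was 0.11. PIGA, a subunit of the enzyme of the first step of the anchor, had a log2 fold change of −0.10 (limma adjusted p = 0.68).

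PIGS and PIGK, both subunits of the transamidase that attaches the anchor, rose by 0.87 ± 0.12 and 0.79 ± 0.17 (log2 fold change ± SE, limma adjusted p = 0.0015 and 0.014). PIGH, a partner of PIGA, rose by 0.74 ± 0.17 (limma adjusted p = 0.016), and the mannosyltransferase PIGB by 0.92 ± 0.24 (limma adjusted p = 0.031). The call of PIGB was lost without control 1, 2 or 4 or without IRF8 KO 1, 3 or 4 (adjusted p up to 0.082). PIGF was the fifth gene called higher (0.53, limma adjusted p = 0.027), a call lost without control 2, 3 or 4 or without IRF8 KO 1 or 3 (adjusted p up to 0.070). DPM1, which makes the mannose donor, fell by 0.64 ± 0.15 (limma adjusted p = 0.018), a call lost without control 1, 3 or 4 or without IRF8 KO 4 (adjusted p from 0.050 to 0.054), and PIGP by 0.62 (limma adjusted p = 0.0083). DPM1 lies on chromosome 20 and PIGP on chromosome 21, whose tested genes had median log2 fold changes of −0.92 (345 genes) and −0.36 (116 genes), and the part of these chromosomes in both falls was not tested. PIGF and PIGP were named after their values had been seen.

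Of 20 genes whose products work with the receptors, 19 were tested, 2 were called higher, 3 lower and 14 were not called. Their median log2 fold change was −0.13. Among the signalling partners of the anaphylatoxin receptors, 16 were tested. GRK6, a kinase that phosphorylates G protein-coupled receptors, rose by 0.44 ± 0.12 (log2 fold change ± SE, limma adjusted p = 0.034), and PIK3R5, a regulatory subunit of the phosphoinositide 3-kinase that G proteins activate, fell by 1.66 ± 0.32 (limma adjusted p = 0.0081). The call of GRK6 was lost without any single library except IRF8 KO 1 (adjusted p from 0.053 to 0.080). Of the partners of CR2 in the B cell coreceptor, CD81 rose by 0.49 ± 0.10 (limma adjusted p = 0.013), while IFITM1 fell by 1.37 ± 0.36 (limma adjusted p = 0.029). The call of IFITM1 was lost without control 2 or 4 or without IRF8 KO 1, 3 or 4 (adjusted p up to 0.076). CR2 itself was not detectable beyond 1 read, as given above.

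Complement receptors mark several blood cell types, so the marker lists of these were read in the same libraries. The 9 monocytic AML markers were all present, with a summed level of 71823 to 84974 normalized counts in control and 102555 to 332638 in IRF8 KO libraries. Of these, 4 were called higher and 5 were not called. With the replicate number as a block, 6 were called higher and 1 lower. The list includes ITGAM and MPO, which are described elsewhere in this text, and its sum does not stand for every marker. The 8 neutrophil markers summed to 4676 to 5742 in control and 27579 to 61813 in IRF8 KO libraries. Of these, 4 were tested, 1 (ELANE) was called higher and 3 were not called. Across these 4 genes the log2 fold change had a median of 0.21, and only 1 was higher without overlap. With the replicate number as a block, 1 was called lower. The higher sum was therefore not a rise of the list as a whole. CR1 is also a protein of red cells and of B cells. Of 11 erythroid markers, HBB, HBG1, HBG2 and GYPB were at 0 in every library, 1 (KLF1) was called higher and 1 (EPOR) lower, and the sum was 669 to 939 in control and 525 to 595 in IRF8 KO libraries. Of 8 B cell markers MS4A1 was at 0 in every library, 1 was called lower, and the sum was 482 to 982 in control and 436 to 1856 in IRF8 KO libraries.

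For the other lists, the 6 dendritic cell markers summed to 1604 to 2950 normalized counts in control and 275 to 798 in IRF8 KO libraries, with 2 (CD1C and CLEC10A) called lower and XCR1 at 0. The 4 T cell markers summed to at most 20.3 in any library. Of the 3 markers of follicular dendritic cells, a cell type known for CR1 and CR2, FDCSP was at 0 and the sum was that of CLU, which has been given above. The part of these shifts in the values of the complement receptors was not tested. In bulk RNA, a larger share of cells with a gene and more RNA of it per cell cannot be told apart.

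Among the tested genes with values most like those of CR1 over the 8 libraries, by Pearson r of the log2 values, were RPAP2 (0.993), MPO (0.993), ATP2C1 (0.992) and CR1L (0.990). The 8 libraries fall into 2 groups with a gap between them for CR1, so r mostly reflects that gap and is given as a description. MPO (myeloperoxidase, a granule enzyme of early myeloid cells) was at 767 ± 54.6 normalized counts in control and 13378 ± 3888 in IRF8 KO cells (SD, n = 4 each), with IRF8 KO 1 highest and IRF8 KO 3 lowest, as for CR1 and CR1L. As MPO was picked for its likeness to CR1 in these same libraries, this order is no separate result.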

How the data were processed

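The study aligned RNA-Seq reads (TruSeq Stranded mRNA) with RNA-Star to GENCODE v32, counted them per gene with featureCounts and normalized them with DESeq2. Per the labels, hg19 and hg38 were used, with no role given. The deposited signal per gene (19590 genes) is the read count over the library's DESeq2 size factor. The sources used here do not give the handling of multimapping reads and strand, so overlapping genes cannot be told apart. The columns named for wild type were matched to controls by replicate number. The comparison table deposited by the authors (fold changes and p-values) and the ChIP-Seq samples were not used here.

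Division by the value of 1 read made 100% of the values whole within 0.01 reads, and no pair of libraries agreed within sampling noise. The closest were control 1 and control 3, whose reads differed by a chi-square per degree of freedom of 7.14, and control 2 and control 4 (40.9). The other control pairs were at 290 to 441, and pairs of IRF8 KO libraries at 91.4 to 254. The fits took each control as a separate library. If the close pairs of controls are not independent samples, the standard errors and p-values may be too small. The comparison used limma 3.58.1 (R 4.3.3) on the log2 scale with a pseudocount of 1, for 13110 genes averaging 10 or more, trended and robust, with Benjamini-Hochberg adjustment and a threshold of 0.05, and was tested on simulated data. The simulated libraries were independent draws, without close control pairs, a split by replicate number or genes near 0 in control. That test therefore does not cover these features of the data. Alternatives were DESeq2 1.42.0 and edgeR 4.0.16 on whole reads, pseudocounts of 0.5 and 5, no filter or a mean of at least 100, upper quartile and quantile scaling, the replicate block, the thresholds of the study (p below 0.01, at least 2-fold) and leaving out each library. Deviations from the group means correlated between same-numbered libraries, over genes, at 0.37, 0.48, 0.45 and 0.50. Replicates 1 and 3, and likewise 2 and 4, also deviated together, with IRF8 KO 1 and control 3 at 0.41, IRF8 KO 3 and control 1 at 0.47, IRF8 KO 2 and control 4 at 0.41 and IRF8 KO 4 and control 2 at 0.40. IRF8 KO 1 thus went more with control 3 than with control 1, and IRF8 KO 3 more with control 1 than with control 3. These values show the split of replicates 1 and 3 from 2 and 4. They do not settle whether the numbers pair the samples.

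The members and lists were chosen with earlier results of these data known. Named genes were all members, IRF8, the called genes of the complement, GPI anchor and partner lists with the largest changes (up to 12, 5 and 5), the called neighbours and the 5 genes most like CR1, of which some are not reported here. Levels were not compared between genes, as no transcript lengths were used. Promoters came from RefSeq (GRCh38.p14), which matched all 9 genes. Protein sequences were not analysed here.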

Additional observations from a re-analysis of the deposited data

Results flagged for a closer look

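In 60 groups of 4 libraries, 1 library stood apart from the other 3 in 3 groups by Dixon's criterion, which chance gives in about 1 of 20. CR2 was at 1.07 normalized counts in IRF8 KO 1 and at 0 in the other 3. C5 was at 554 in IRF8 KO 3, with the others between 926 and 952. PIGS was at 7712 in IRF8 KO 1, with the others between 5945 and 6135. CR1 and CR1L had no such library in either group.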

How the results depend on the processing

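The log2 fold changes of the fitted members kept their sign under all alternatives run. That of CR1 was 10.55 with DESeq2, 10.42 with edgeR and 7.57 with a pseudocount of 5, against 9.17, and that of CR1L was 8.89, 9.33 and 3.59, against 5.78, since a fold against controls at 0 depends on the prior count. That of C5AR1, whose groups overlapped, was 0.23 with DESeq2 and 0.21 with edgeR against 1.98, and 0.50 without control 3 and 3.23 without control 4. The replicate block, for which pairing by number is not settled, called 3769 genes in all against 2387, with 2 in place of 1 complement genes lower. DESeq2 called 3402 genes. At the thresholds of the study, 0 complement genes were called lower, 0 GPI anchor genes higher and 0 lower, and 0 partner genes higher. With no filter, 1 neighbour was called higher (C1orf116, named after its values had been seen) against 0. Leaving out 1 library gave 0 to 1 complement genes lower, 3 to 6 GPI anchor genes higher and 1 to 2 lower, 1 to 2 partner genes higher, 1 to 3 neighbours lower, and 1668 to 2459 genes in all. FCAMR lost its call under quantile normalization (limma adjusted p = 0.073), and CALR gained one with DESeq2 (adjusted p = 0.045) and with the block. EPOR, a marker, lost its call in every leave-one-out fit (adjusted p up to 0.113), without the filter and with upper quartile scaling. The other single-gene calls named as lost in the text were lost by leaving out a library and, for C5, PIGB, PIGF, DPM1 and GRK6, also at the thresholds of the study. The cause was not tested. CR2 rests on 1 read, and control values of CR1 on 5.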
